A study of Rattus norvegicus with 164 samples.

Results

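The opioid system of the rat prelimbic cortex was described through 7 genes, the 3 peptide precursors Penk, Pdyn and Pnoc and the 4 receptors Oprm1, Oprd1, Oprk1 and Oprl1. They were taken by symbol from a table of 38354 genes, and all 7 were found. The table held polyA RNA-seq values for 130 libraries labelled prelimbic cortex, from heterogeneous stock rats, an outbred laboratory population. The labels give no treatment, age or sex, and divide the libraries only by the kind of animal identifier: 68 carry a decimal number (the decimal series), 51 a code beginning with E21DCD (the E21DCD series) and 11 such a code that was reassigned. A further 34 of the 164 labelled samples were not analysed here. Counts were scaled to a total of 1000000 per library (CPM), and levels are log2(CPM + 1). Of the 7 genes, all passed the filter used for testing, a mean level of at least 1 over the libraries compared.

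Opioid peptides are cut from larger precursor proteins and released by neurons. Penk encodes the precursor of the enkephalins, which act mainly on the delta receptor (Oprd1) and the mu receptor (Oprm1), Pdyn that of the dynorphins, which prefer the kappa receptor (Oprk1), and Pnoc that of nociceptin, the ligand of Oprl1. The 4 receptors couple to inhibitory G proteins, which lower cyclic AMP and open inwardly rectifying potassium channels. In the striatum Penk marks projection neurons that carry the dopamine receptor Drd2 and Pdyn those that carry Drd1, whereas in the cortex the precursors are found largely in subsets of interneurons.

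In the GRCr8 assembly, whose RefSeq gene ends matched the deposited positions, Penk lies at chr5:21981381-21987074, Pdyn at chr3:137354161-137366503 and Pnoc at chr15:43800240-43827841, all on the minus strand. Oprm1 spans chr1:45565371-45818722 and Oprl1 chr3:189209495-189225406 on the plus strand. Oprd1 spans chr5:149590244-149624999 and Oprk1 chr5:18657866-18675671 on the minus strand.

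RefSeq promoter windows were found for 3 of the 7 genes, with 2 windows for Oprm1. The 250 bases before the annotated start are shown for these genes to set their base composition and core promoter letters beside their levels, 5′ to 3′ on the gene's strand, with searched motifs in capitals. The windows are chr3:137366504-137366753 for Pdyn, chr5:149625000-149625249 for Oprd1 and chr1:45565121-45565370 for the Oprm1 start that matches the deposited position.
Pdyn: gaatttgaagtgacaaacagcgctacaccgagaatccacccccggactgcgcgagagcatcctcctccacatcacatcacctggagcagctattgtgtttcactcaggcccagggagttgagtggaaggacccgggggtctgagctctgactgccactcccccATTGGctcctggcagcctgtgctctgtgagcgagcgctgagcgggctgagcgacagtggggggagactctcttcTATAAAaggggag
Oprd1: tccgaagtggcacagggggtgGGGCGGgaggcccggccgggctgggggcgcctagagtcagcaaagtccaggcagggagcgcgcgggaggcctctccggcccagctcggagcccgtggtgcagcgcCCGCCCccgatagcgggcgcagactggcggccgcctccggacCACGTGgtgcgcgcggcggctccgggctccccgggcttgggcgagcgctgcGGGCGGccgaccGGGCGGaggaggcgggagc
Oprm1: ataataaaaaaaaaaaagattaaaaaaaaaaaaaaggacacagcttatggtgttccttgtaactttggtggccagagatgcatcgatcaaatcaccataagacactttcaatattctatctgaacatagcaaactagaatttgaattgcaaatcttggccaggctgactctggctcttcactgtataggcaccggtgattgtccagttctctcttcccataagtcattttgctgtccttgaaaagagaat
Searched on both strands were the TATA box as TATAAA, the cyclic AMP response element as TGACGTCA and by its shorter core TGACG, which lies within the full element, the AP-1 site as TGANTCA, the GC box as GGGCGG, the letters CCAAT, and the E-box as CACGTG. Pdyn held 1 TATAAA, starting at position -13 from the start, and 1 CCAAT, letters present in 12.9% and 34% of 33469 windows of the same length. Oprd1 held 4 GC boxes and 1 CACGTG, present in 30.5% and 5.59% of windows, and its G and C content of 79.6% exceeded that of 98.8% of windows. The printed Oprm1 window had a G and C content of 36.4%, against a median of 51.2% over all windows, and held none of the motifs. The other Oprm1 window, at chr1:45585733-45585982, had 58.4% and also held none. A match describes letters and not a binding site.

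Depth, as summed counts in units of 1000000, was 15.1 to 55.95 per library, with a median of 25.8. In 11 libraries, all of the decimal series, the level of Drd2 was above 6, and these are called striatal-like; the other 119 are called cortical. Besides Drd2, which defined them, the other 7 genes of a list of striatal projection neuron markers all lay above the cortical range in the striatal-like libraries. Fezf2, a regulator of deep-layer cortical neurons, was at 1.67 to 2.30 in the striatal-like and 5.25 to 6.70 in the cortical libraries. Of the layer 5 list that holds Fezf2, 1 of 4 genes lay wholly below cortex and 2 wholly above. Of 4 layer 6 genes 3 lay wholly above. Of 5 cortical excitatory neuron genes 4 lay wholly below and 0 above. The striatal and cortical excitatory markers thus did not bear out the labelled tissue in those 11, while the deep-layer genes were mixed. Among the cortical libraries 7 had a Gad2 level of 4.7 or below, 1 of the decimal and 6 of the E21DCD series (low-Gad2), and the other 112 are called other cortical. The striatal markers summed to 3850 to 5546 CPM in the striatal-like, 157.6 to 367.6 in the low-Gad2 and 276.8 to 717.3 in the other cortical libraries. Gad2 encodes an enzyme of GABA synthesis. At the Drd2 limit the nearest libraries had 7.25 and 4.65, and at the Gad2 limit 5.14 and 4.27. Because these sets were defined by measured levels, they are described with no test.

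Penk, Pdyn and Oprk1 set the striatal-like libraries apart, at 20.7 to 23.3 times the median cortical CPM, while Pnoc and Oprl1 had lower medians there. Penk was at 10.10, 10.51 and 10.82 (lowest, median and highest) in the 11 striatal-like libraries and at 5.32, 5.99 and 7.04 in the 119 cortical ones. Its median of 1457 CPM was 23.3 times that of 62.6 in cortex, and no libraries overlapped. In bulk tissue, more cells of a type and more RNA per cell cannot be told apart. The highest cortical Penk was in decimal replicate 1, which also had the highest cortical Oprk1 (2.70) and the highest cortical Drd2 (4.65), Drd1 (5.39) and Adora2a (5.12). Penk moved there with striatal markers, and their part in that level was not tested.

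Pdyn was at 8.56, 8.89 and 9.21 in the striatal-like libraries and at 2.91, 4.47 and 5.24 in cortex. Its median CPM was 473.3 against 21.09, a 22.4-fold ratio. The lowest cortical level was that of decimal replicate 7, which also had the lowest Pnoc (2.70), and in that library Gad2 was just above the limit. Pnoc ran the other way, at 1.32, 1.99 and 2.82 in the striatal-like and 2.70, 3.18 and 3.86 in the cortical libraries. Its cortical median of 8.07 CPM was 2.72 times the striatal-like one of 2.97. The Pnoc ranges overlapped narrowly, through decimal replicate 57 on the striatal-like side.

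Of the receptors, Oprk1 was the one whose ranges stood apart. It was at 5.03, 5.15 and 5.55 in the striatal-like and 0.44, 1.41 and 2.70 in the cortical libraries, a ratio of medians of 20.7 in CPM. Dynorphin precursor and kappa receptor were thus both high in the same 11 libraries. Oprm1 was at 1.51, 1.92 and 2.70 against 0, 1.25 and 2.12 in cortex, with a 2.02-fold higher median and overlapping ranges. Its estimated count was small, with a median of 72.1 per striatal-like and 35 per cortical library. Oprd1 differed little between the sets, at 1.77, 2.08 and 2.28 against 0.62, 2.25 and 2.91. Oprl1 was at 4.50, 4.78 and 5.02 against 4.12, 5.93 and 6.28, and its cortical median was 2.26 times the striatal-like one. All 11 striatal-like libraries were below all 112 other cortical ones in Oprl1, and the overlap with cortex came from the low-Gad2 libraries.

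Thus 3 of 7 genes lay wholly above the cortical range and 0 wholly below it, while 4.45% of the 15150 tested genes lay above and 2.86% below. Against the 112 other cortical libraries 3 lay above and 1, Oprl1, below, beside 5.15% and 7.1% of tested genes. The median difference over the 7 genes was 0.67 against 0.04 over all tested genes.

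**Figure D1:**
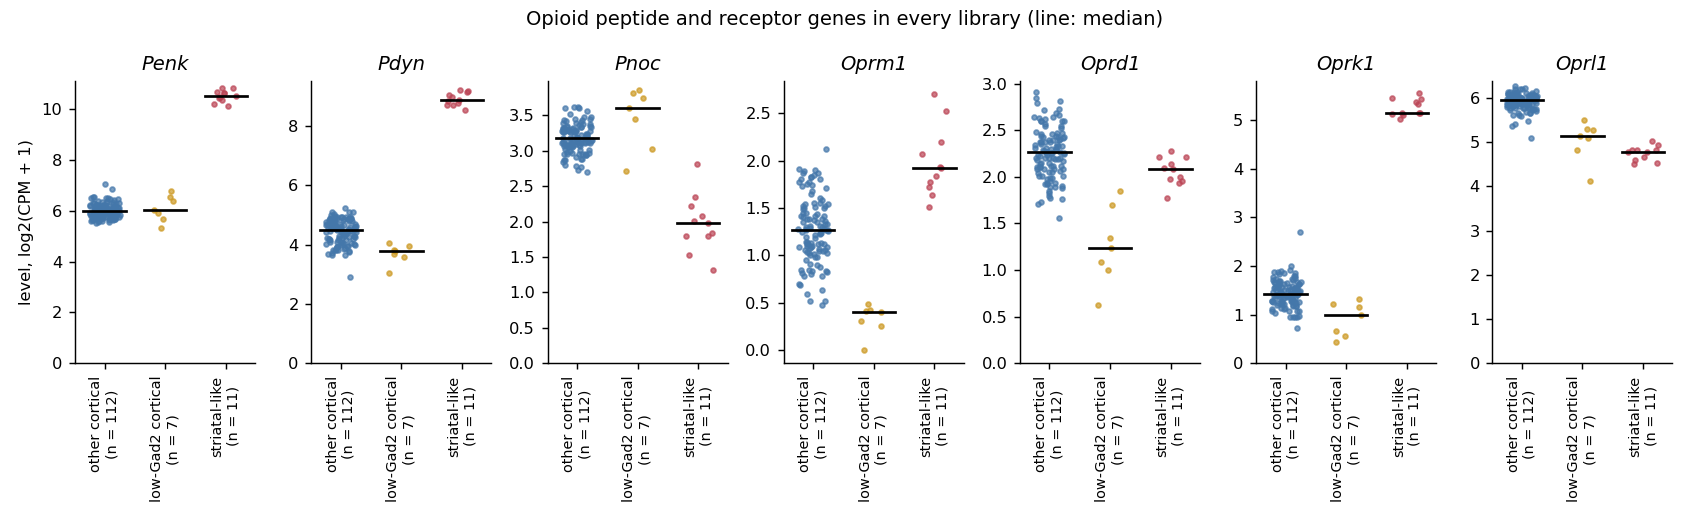
Level of each of the 7 genes, as log2(CPM + 1) on the vertical axis, in every library of the 3 sets, with a point per library and a line at the median. Penk, Pdyn and Oprk1 of the 11 striatal-like libraries lie above all cortical points, Oprl1 below those of the 112 other cortical libraries, and Oprm1 is lowest in the 7 low-Gad2 libraries.

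In the 7 low-Gad2 libraries the receptors were lower in median than in the other cortical libraries, and Penk was not. Oprm1 was at 0, 0.40 and 0.49 against 0.48, 1.27 and 2.12, so that only the edge of the ranges overlapped. It was listed at 0 in decimal replicate 15, where 3 counts would be 0.116 CPM. Oprd1 was at 0.62, 1.24 and 1.85 against 1.56, 2.26 and 2.91. Both receptors were thus at the low end of their cortical range in these libraries. Oprl1 was at 4.12, 5.15 and 5.50 against 5.10, 5.95 and 6.28, and Oprk1 at 0.44, 0.99 and 1.33 against 0.72, 1.43 and 2.70. Of the precursors, Pdyn was at 3.04, 3.78 and 4.06 against 2.91, 4.50 and 5.24, and Pnoc had a higher median, 3.60 against 3.18. Penk had medians of 6.02 and 5.99. None of the 7 genes stood apart without overlap, beside 1.59% of tested genes above and 6.26% below. The median difference was -0.72 over the 7 genes and -0.12 over all tested genes. In the same libraries 4 of 6 nuclear oxidative phosphorylation genes lay above the other cortical range, with a summed level of 1165 to 2697 against 531.9 to 975.9 CPM. The part of that difference in the receptor levels was not tested.

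Some genes that work with the receptors also differed between striatal-like and cortical libraries, as a description. Over all tested genes 4.45% lay wholly above cortex and 2.86% wholly below. Among the 6 genes that process the precursors, the convertase Pcsk1 had the lowest difference of medians (-1.45) and the protease Ctsl the highest (0.40), and 0 stood apart. Among 7 peptidases 2 lay wholly above cortex: Mme (neprilysin, which degrades enkephalins), at 4.86 to 5.38 against 1.52 to 3.19, and Ece2, at 5.55 to 6.00 against 3.10 to 4.91. Among 10 G proteins, channels and cyclases, Adcy5, the main striatal adenylyl cyclase, lay above at 9.55 to 10.14 against 5.47 to 8.01. The potassium channel subunit Kcnj6 lay below, at 2.06 to 4.67 against 5.19 to 7.36, and its partner Kcnj3 had a difference of medians of -2.49 with overlap. The inhibitory G protein genes Gnai1, Gnai2, Gnai3 and Gnao1 had differences of medians between -0.25 and -0.01, and Gnaz, of the same class, one of -0.53. Among 9 genes of desensitisation and G protein regulation, Rgs9 was at 7.78 to 8.33 against 2.21 to 5.08 and Rgs14 at 6.50 to 7.29 against 4.99 to 6.46. The receptor kinase Grk2 was at 7.39 to 7.71 against 8.32 to 9.28, wholly below. Rgs9 is also 1 of the 8 striatal markers. Of the other opioid-related genes Pomc, the endorphin precursor, was low in both sets, with medians of 0.94 and 1.04.

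Between rats, the precursors Pdyn and Penk varied more than genes of like level in the 112 other cortical libraries. The SD of Pdyn was 0.42, 2.49 times the trend of SD on mean level, a ratio above that of 97.6% of tested genes. That of Penk was 0.28, or 1.93 times the trend, above 94.4% of genes. Pnoc varied less than the trend, at 0.96 times, and the 4 receptors lay at 1.09 to 1.37 times. For comparison, 5.04% of the 15132 genes tested in these libraries had a ratio of 2 or more. No member's level was related to the log10 of summed counts in these libraries (permutation test, Benjamini-Hochberg adjusted over 7 genes, adjusted p of 0.716 or more for r). Over all 119 cortical libraries, the low-Gad2 ones included, the ratio was 1.94 for Pdyn (above 94.8% of genes) and 1.33 for Penk (above 79.5%).

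The only labelled division, the identifier series, was compared in cortical libraries with limma, 57 decimal against 51 E21DCD. Of the 7 genes 0 passed the adjusted threshold of 0.05, whereas 1325 of 15122 tested genes did, 8.76%. Penk was at 6.05 ± 0.31 (SD, n = 57) in the decimal and 5.95 ± 0.29 (SD, n = 51) in the E21DCD libraries, a difference of 0.10 (SE 0.06, limma adjusted p = 0.312). Pdyn was at 4.30 ± 0.50 and 4.42 ± 0.36, a difference of -0.12 (SE 0.08, limma adjusted p = 0.403). Oprd1 was 0.11 higher in the decimal series (SE 0.07, limma adjusted p = 0.355). The other 4 genes differed by between -0.02 and 0.02, less than their SEs. At an unadjusted p under 0.05, 0 of the 7 passed and 3480 of the 15122 tested genes did.

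Leaving out the 7 low-Gad2 libraries, 6 of which are in the E21DCD series, gave 5170 called genes, 34.2% of 15132, and again 0 of the 7. Penk then differed by 0.12 (SE 0.05, limma adjusted p = 0.0774) and Pdyn by -0.18 (SE 0.08, limma adjusted p = 0.0682). With the 11 striatal-like libraries, which are all decimal, 3 of the 7 passed, beside 27.6% of 15152 tested genes: Penk higher by 0.82 (limma adjusted p = 0.00609), Pdyn by 0.63 (0.0477) and Oprk1 by 0.61 (0.0195). Pdyn and Oprk1 had the opposite sign without those libraries. The 11 reassigned libraries were compared with the 51 cortical E21DCD ones by limma, and 0 of 15097 genes passed (0%), with 633 at an unadjusted p under 0.05. Pdyn was 0.29 higher in the reassigned libraries (SE 0.12, unadjusted p = 0.018, limma adjusted p = 0.912). Median-of-ratios scaling gave 0 genes as well, and testing without the filter on low levels gave 2, neither of them a member. The labels do not say what differs between the series apart from the identifier.

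**Figure D2:**
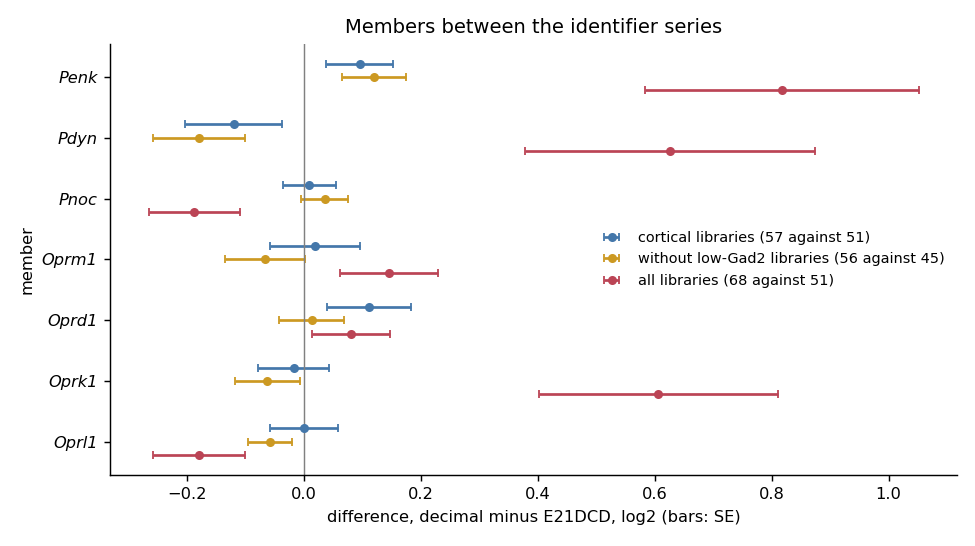
Difference in mean level between the decimal and E21DCD series for each of the 7 genes (horizontal axis, log2; bars, SE), in cortical libraries, in cortical libraries without the low-Gad2 ones, and in all libraries. Penk, Pdyn and Oprk1 lie at 0.61 to 0.82 with the striatal-like libraries and between -0.18 and 0.12 without them.

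Of the listed genes of processing, peptidases, receptor signalling and other opioid-related functions, 5 passed between the series in cortical libraries by limma, where 8.76% of all tested genes did. The numbers tested follow list by list. The protease Ctsl was higher in the decimal series by 0.14 (adjusted p = 0.00583), the only 1 of 6 processing genes. Of 7 peptidases and 10 G proteins and channels 0 passed. Of 9 desensitisation genes Rgs9 was higher by 0.27 (adjusted p = 0.0216) and Rgs19 lower, with a difference of -0.12 (adjusted p = 0.0172). Without the low-Gad2 libraries the difference for Rgs19 was -0.05 (adjusted p = 0.115). Of 4 tested other opioid-related genes Pomc was higher by 0.20 (adjusted p = 0.035) and Ogfr, the opioid growth factor receptor, by 0.08 (adjusted p = 0.0253), and with median-of-ratios scaling their adjusted p was 0.05 and 0.0701. Without the low-Gad2 libraries, where 34.2% of all tested genes passed, 5 of 6 processing genes, 2 of 7 peptidases, 6 of 10 G proteins and channels, 3 of 9 desensitisation genes and 3 of 4 other genes did. All 6 oligodendrocyte markers passed and were higher in the decimal series, with a median difference of 0.60, and 5 of 8 immediate early genes passed and were lower, with a median over the 8 of -0.34. Their part in the differences above was not tested.

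Which of the 7 genes varied together was examined in the 112 other cortical libraries, over 21 pairs, by permutation tests of Pearson's r and Spearman's rho adjusted over the pairs. By r 5 pairs passed, and 3 of them by rho too. Oprm1 and Oprl1 had r = 0.42 (adjusted p = 0.00021, rho = 0.38, adjusted p = 0.00147), with r = 0.285 within the decimal series and 0.60 within the E21DCD and reassigned libraries. Oprd1 and Oprl1 had r = 0.35 (adjusted p = 0.00157, rho = 0.28, adjusted p = 0.0196), with 0.47 and 0.18 within the series. Penk and Pnoc had r = 0.24 (adjusted p = 0.0462, rho = 0.30, adjusted p = 0.0126), with 0.09 and 0.42. With median-of-ratios scaling the call by r was lost for Penk and Pnoc (r = 0.19, adjusted p = 0.134, by rho 0.0389), and Penk and Oprl1 passed with r = -0.26 (adjusted p = 0.03) against -0.20 (adjusted p = 0.119) before it. In no pair did r pass in both series. Without the 2 libraries farthest from the median, r was 0.41, 0.33 and 0.32 in these pairs.

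A precursor and a receptor passed by r alone in the 2 remaining pairs. Penk and Oprk1 had r = 0.31 (adjusted p = 0.00574, rho = 0.17, adjusted p = 0.249). Without decimal replicates 1 and 7, chosen after their values were seen, r was 0.20 (adjusted p = 0.145), so the call was lost. Decimal replicate 1 had the highest cortical Penk and Oprk1, and the 2 libraries were left out only together. Pdyn and Oprl1 had r = 0.25 (adjusted p = 0.035, rho = 0.16, adjusted p = 0.249) and r = 0.13 without the same libraries (adjusted p = 0.332). Neither Penk with its receptors Oprd1 (-0.17) and Oprm1 (-0.05), nor Pdyn with Oprk1 (0.09), nor Pnoc with Oprl1 (0.13), passed the threshold. Pnoc and Oprl1 had r = 0.44 (adjusted p = 0.00378, by rho 0.142) within the decimal series and -0.34 (adjusted p = 0.0596) within the E21DCD and reassigned libraries. With the low-Gad2 libraries Pdyn and Oprk1 had r = 0.24 (adjusted p = 0.018, by rho 0.137). Penk and Pdyn had r = 0.20 (adjusted p = 0.116).

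Each gene was then set against 17 lists of cell type, activity and energy genes in the same libraries, 119 relations in all, each list scored as the mean z-score of its genes without the 7 members. By r 42 relations passed, 28 of them by rho too, and 7 of these also passed by r within each series, with median-of-ratios scaling, with a pseudocount of 0.1, with the low-Gad2 libraries and without decimal replicates 1 and 7. None of the 7 genes passed with the immediate early genes. Penk followed the striatal projection neuron list (r = 0.66, permutation p = 1e-05, the smallest the resamples can give, adjusted p = 9.92e-05, rho = 0.52), with r = 0.69 in the decimal and 0.65 in the other series. Without the 2 farthest libraries r was 0.60. Penk also followed the layer 6 list (r = 0.44, adjusted p = 0.000159, rho = 0.44), 3 of whose 4 genes lay above cortex in the striatal-like libraries. Penk thus varied with striatal markers among libraries classed as cortical too. The striatal list holds Drd2, the gene that defined the classes.

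All 3 precursors passed by r and rho with the somatostatin interneuron list, and only Pnoc did so within both series. Penk had r = 0.35 with it. Pnoc and Pdyn did not follow every interneuron list. With the parvalbumin list Pnoc and Pdyn had r = 0.11 and 0.04, and with the GABA synthesis list 0.05 and 0.28. None of these passed by both r and rho. Pnoc had r = 0.475 with the somatostatin interneuron list (Sst, Npy, Nos1 and Chodl; adjusted p = 9.92e-05, rho = 0.43), with 0.53 and 0.38 within the series. Pdyn had r = 0.41 with the same list (adjusted p = 9.92e-05, rho = 0.35), with 0.50 and 0.34 within the series, the latter at an adjusted p of 0.0649. Without decimal replicates 1 and 7 these were 0.41 for Pnoc and 0.34 for Pdyn. With the low-Gad2 libraries they were 0.48 for Pnoc and 0.24 for Pdyn. Pnoc with the VIP and lamp5 list had r = 0.39 (adjusted p = 0.000159), but 0.57 in the decimal and 0.17 in the other series. Pdyn with the same list (r = 0.28) and Pnoc with the nuclear oxidative phosphorylation list (r = 0.23) also passed by r and rho, neither within both series.

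Among the receptors, Oprd1 followed cortical excitatory neuron genes (r = 0.51, adjusted p = 9.92e-05, rho = 0.51), with 0.58 and 0.46 within the series. Oprd1 also passed by r and rho with the GABA synthesis list (r = 0.41, 0.59 within the decimal series), though not within both series. With the low-Gad2 libraries r for Oprd1 was 0.36 with the excitatory list and 0.65 with the GABA synthesis list. Oprm1 and Oprl1 ran against the nuclear oxidative phosphorylation genes. Oprm1 had r = -0.62 (adjusted p = 9.92e-05, rho = -0.60), with -0.65 and -0.63 within the series, and Oprl1 r = -0.57 (adjusted p = 9.92e-05, rho = -0.57), with -0.57 and -0.63. Oprl1 also followed the GABA synthesis list (r = 0.58, adjusted p = 9.92e-05, rho = 0.41; 0.62 and 0.42 within the series), which holds Gad2, the gene that set the low-Gad2 libraries apart. Oprl1 ran against the endothelium list as well (r = -0.59), with -0.75 in the decimal and -0.05 in the other series. Oprk1 had r = 0.47 with the striatal list (adjusted p = 9.92e-05, rho = 0.215, adjusted p = 0.0718), and 0.26 without the 2 farthest libraries.

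**Figure D3:**
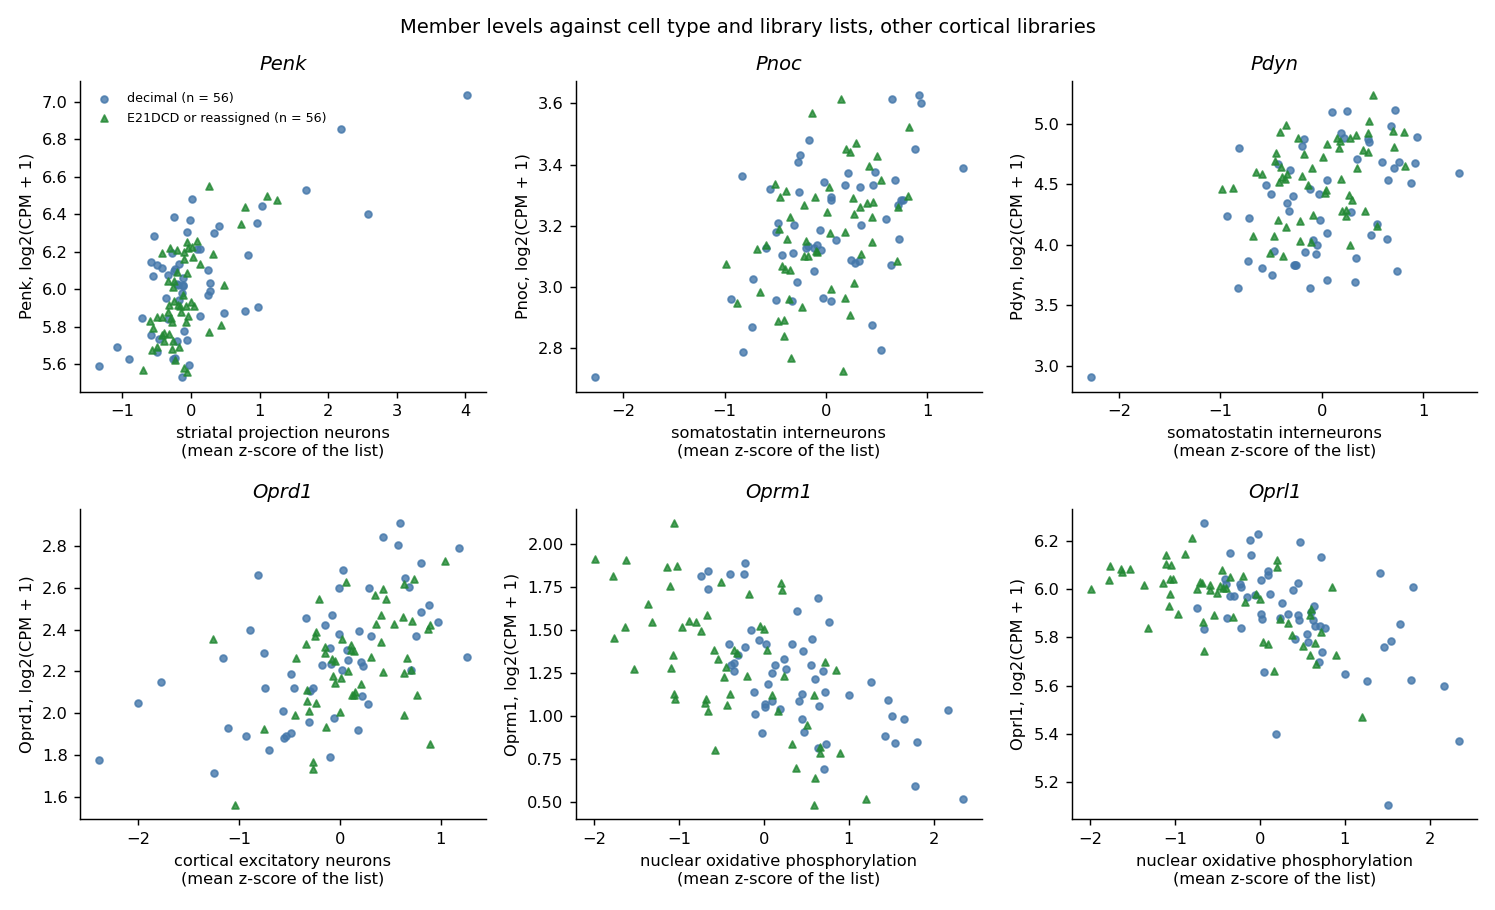
Level of Penk, Pnoc, Pdyn, Oprd1, Oprm1 and Oprl1 (vertical axes, log2(CPM + 1)) against the mean z-score of a gene list in 112 other cortical libraries, with circles for the decimal series and triangles for the E21DCD and reassigned libraries. Penk rises with striatal markers (r = 0.66) and Oprm1 and Oprl1 fall with oxidative phosphorylation genes (r = -0.62 and -0.57), in both series.

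**Figure D4:**
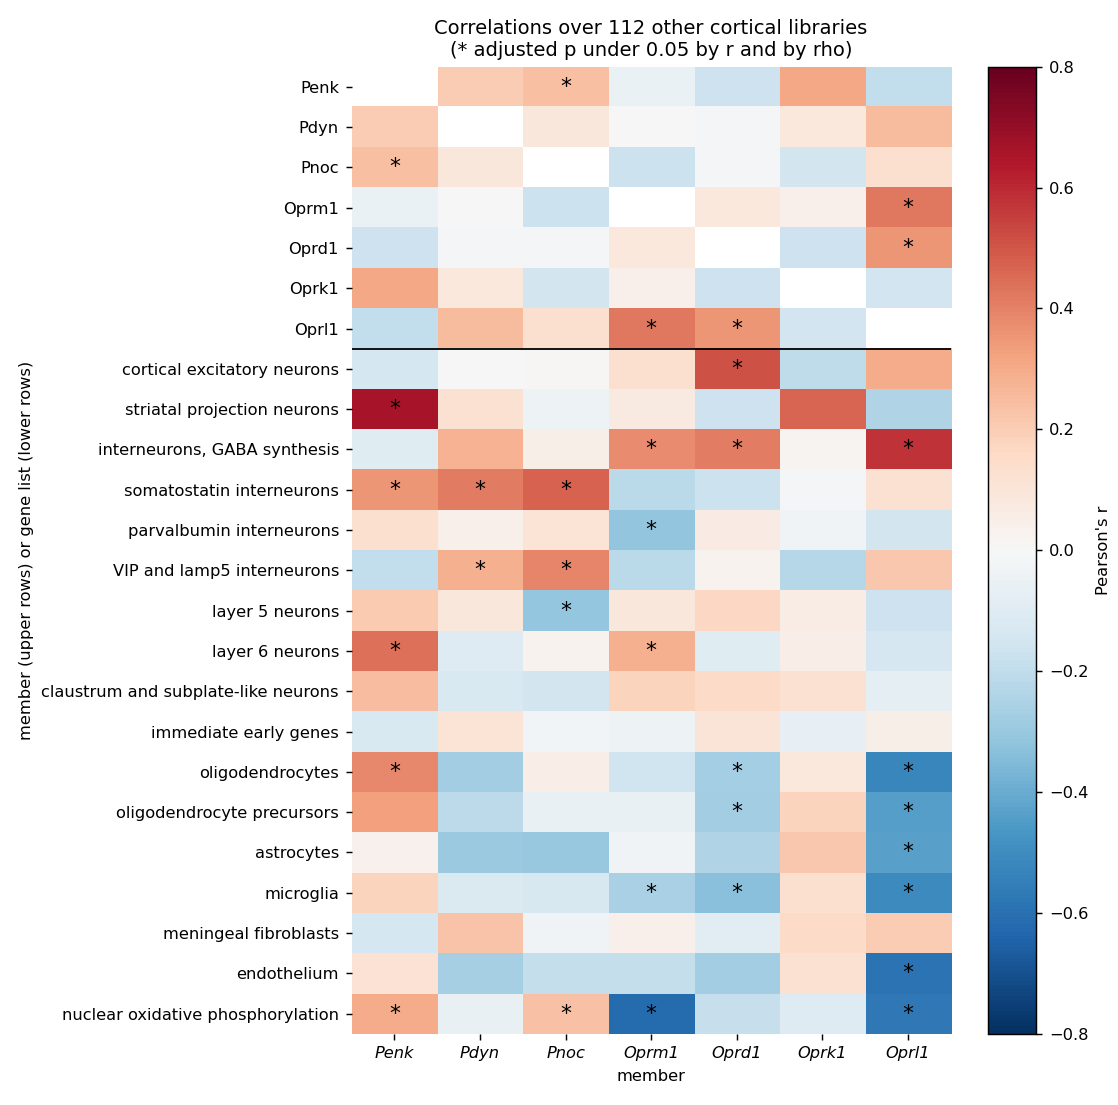
Pearson's r of each of the 7 genes (columns) with the other 6 (upper rows) and with 17 gene lists (lower rows) over 112 other cortical libraries, where a star marks an adjusted p under 0.05 by r and by rho. The precursors have stars with the somatostatin interneuron list and the receptors Oprd1 and Oprl1 stars with negative r for glial lists. Oprm1 has a star with negative r for microglia (-0.26) and Penk one with positive r for oligodendrocytes (0.39). None of these glial relations passed within both series.

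Within the 11 striatal-like libraries Penk, Pdyn and Oprk1 varied together and with the striatal markers. Penk and Pdyn had r = 0.95 (permutation test over 21 pairs, adjusted p = 0.00042, rho = 0.94), Pdyn and Oprk1 r = 0.89 (adjusted p = 0.00367, rho = 0.91) and Penk and Oprk1 r = 0.81 (adjusted p = 0.0178, rho = 0.79). Without the 2 farthest libraries these were 0.90, 0.83 and 0.67. With the striatal list Penk had r = 0.93 and Pdyn r = 0.95 (adjusted p = 0.00238 for each over 119 relations, and 0.0497 by rho), and Oprk1 r = 0.81 (adjusted p = 0.0365, and 0.0695 by rho). That list holds Drd2, by which these libraries were chosen. Decimal replicate 4 was lowest and decimal replicate 53 highest in each of Penk, Pdyn and Oprk1. Pnoc followed the cortical excitatory list instead (r = 0.84, adjusted p = 0.0111, rho = 0.86), in libraries whose Slc17a7, the cortical glutamate transporter, ran from 2.75 to 8.84. With 11 libraries, all of 1 series, no comparison between series was possible here.

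**Figure D5:**
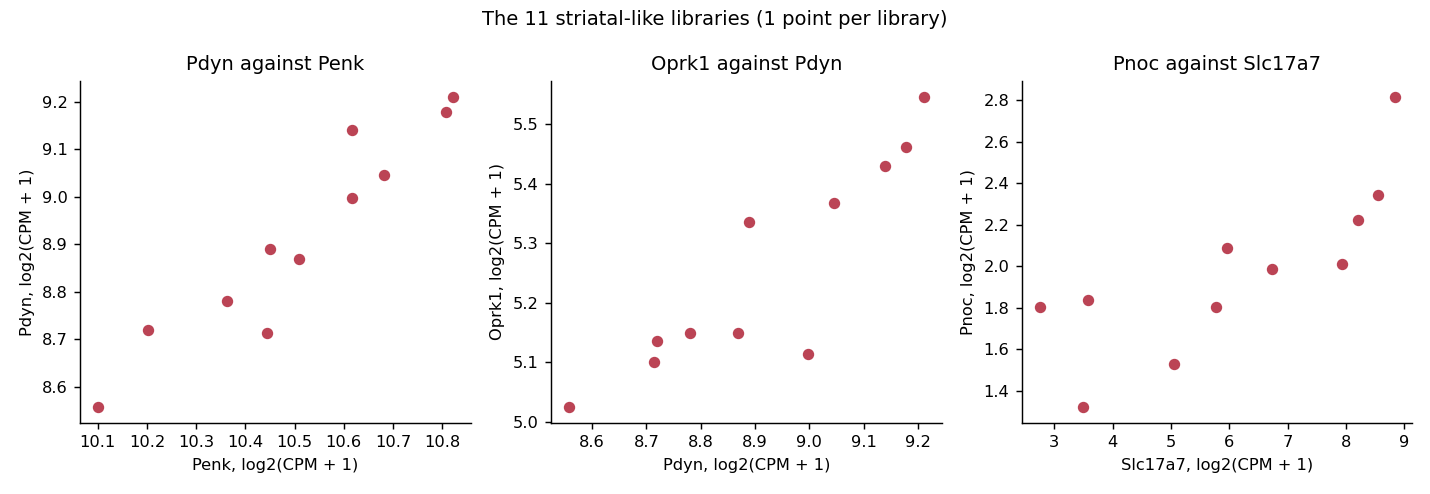
Levels (log2(CPM + 1)) in the 11 striatal-like libraries, 1 point per library: Pdyn against Penk, Oprk1 against Pdyn, and Pnoc against Slc17a7, a gene of the cortical excitatory list. Pdyn rises with Penk (r = 0.95) and Oprk1 with Pdyn (r = 0.89), and the library highest in Pnoc (2.82) is also highest in Slc17a7 (8.84).

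By Pearson's r over the 112 other cortical libraries, given as a description, the 5 genes most like Penk were Drd2 (0.66), Ecel1, Rgs9, Ppp1r1b and Gpr6 (0.58). Of these Drd2, Rgs9, Ppp1r1b and Gpr6 are in the striatal list, and Drd2 defined the classes of libraries. Gpr6 was also first for Oprk1 (0.53), followed by Dach1, Nsun3, Rarb and Kifc1. Those most like Pdyn were Caly (0.54), Hpcal1, Nrsn2, Hyou1 and Ppp2r5d, and those most like Pnoc Thap4 (0.60), Wdr54, Tmed9, Jagn1 and Saraf. Oprm1 was nearest to Grik3 (0.77), Cnot1, Klhl11, Arhgap35 and Xylt1, and Oprl1 to Gas7 (0.83), Tp53bp1, Usp13, Lonrf2 and Sugp2. Oprd1 was nearest to Ahdc1 (0.57), Lrtm2, Lingo1, Neurod2 and Marchf4, of which Neurod2 is in the cortical excitatory list. In the 11 striatal-like libraries Penk was nearest to Prkar2b (0.96), Gnb5, Kcnab1, Gabra4 and Lingo3, and Pdyn to Dlx5 (0.94), Rarb, Ano3 and Kcnab1. Kcnab1 was in both lists. Pnoc was there nearest to Cnih3 (0.97), Oprk1 to Mypop (0.93), Oprl1 to Kcnc1 (0.92), Oprm1 to Zbtb7c (0.93) and Oprd1 to Pitrm1 (0.89).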

How the data were processed

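PolyA RNA of prelimbic cortex was sequenced by the authors. The submitters' processing notes name kallisto 0.48. The deposited unit is log2, which the values fit as log2 of an estimated count plus 1 per gene: they ran from 0 to 21.9, and 61.5% of linear values between 0.5 and 30 lay within 0.01 of a whole number. The log was undone, each library was brought to a total of 1000000, and log2 was taken after adding a pseudocount of 1. Methods for read counts were not used. Fold changes on this scale understate those of low genes, and gene lengths were not used, so levels are not compared between genes. Overlapping or duplicated genes share reads in a way the table does not show.

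The build is not given in the sources used here; all 38278 positions compared equalled a gene end in the GRCr8 RefSeq table. No library was counted as a duplicate. After centring each gene over all 130 libraries, the highest correlation between any pair of libraries was 0.945, a value that cannot by itself exclude a duplicate. Summed counts of 15.1 to 55.95, in units of 1000000, set the precision. Nothing in the labels says how the rats are related. The p-values treat the libraries as independent, which could not be checked.

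Genes with a mean of at least 1 were tested with the moderated linear model of limma 3.58.1, run in R 4.3.3 (trend option, two-sided, Benjamini-Hochberg adjusted over all tested genes, threshold 0.05). The model was also tested on simulated data, with normal values drawn independently for each gene. Differences of 0.25, 0.5 and 1 were found there in 89.6%, 98.5% and 100% of cases for decimal against E21DCD (15122 genes). For reassigned against E21DCD (15097 genes) the shares were 44.8%, 89.6% and 97%. Of 208 and 157 calls, 16 and 3 were false. Genes of the real libraries vary together, so these shares may not hold for the data. Correlations used two-sided permutation tests with 100000 resamples, whose smallest p is 1e-05. The SD trend was a lowess fit (frac 0.3). Permutations ran in numpy 2.4.6 and scipy 1.17.1, the lowess fit in statsmodels 0.14.6, and figures in matplotlib 3.10.9, under Python 3.11.15 with pandas 2.3.3.

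The members, lists and limits were chosen with earlier results of these data known. Named genes are all members, pathway genes past the threshold or with the highest or lowest 2 differences in medians per list, and the 5 genes with the highest r with each member, locus numbers left out, of which a gene is not reported here; a few more pathway genes were named after their values were seen. Alternatives were median-of-ratios scaling, no filter, a pseudocount of 0.1, depth as covariate, and other sets of libraries.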

Additional observations from a re-analysis of the deposited data

How the results depend on the processing

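Between the series, 0 members passed under 8 of 9 settings and 3 with the striatal-like libraries, where Pdyn (0.626) and Oprk1 (0.606) changed sign. The number of all tested genes called, 1325, was 852 without the filter on low levels, 5170 without the low-Gad2 libraries and 4183 with all libraries. The reassigned comparison gave 2 genes without the filter and 0 otherwise. Of pairs of members, 5 passed over 112 libraries, 14 with the low-Gad2 libraries, 3 within the decimal series and 3 within the E21DCD and reassigned libraries. Of relations with lists, 42 passed over 112 libraries and 18 within the E21DCD and reassigned libraries. With the low-Gad2 libraries r changed sign for Pdyn and Oprm1 (0.224), Pdyn and Oprd1 (0.236), Oprk1 and Oprl1 (0.262), Oprd1 and Oprk1 (0.153), Pnoc and Oprl1 (-0.11) and Pdyn and Pnoc (-0.06). Among relations with lists that had passed, it changed sign for, among others, Oprl1 with oligodendrocyte precursors (0.035) and with astrocytes (0.067). Within the E21DCD and reassigned libraries these 2 were 0.018 and 0.142. With median-of-ratios scaling Penk and Pnoc lost the call by r, and Penk and Oprl1 gained it. Apart from the smaller sets of libraries, the cause was not tested. The 3 members above the cortical range in the striatal-like libraries stood so under median-of-ratios scaling and a pseudocount of 0.1 as well. The alternative without decimal replicates 1 and 7 was chosen after seeing the data. No paired analysis was possible because the replicate numbers only name libraries in accession order. Depth limits Oprm1 most, with a median estimated count of 6.03 in the low-Gad2 libraries.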
